A study of Macaca mulatta with 27 samples.

Results

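The genes described here are the inhibitors of the cyclin-dependent kinases (CDKs) and the retinoblastoma (RB) family, taken by gene symbol. They are CDKN1A, CDKN1B and CDKN1C of the CIP/KIP family, CDKN2A, CDKN2B, CDKN2C and CDKN2D of the INK4 family, and the pocket protein genes RB1, RBL1 and RBL2. Of these 10 symbols, 9 had a row among the 17967 genes of the count tables, and CDKN2A was not analysed here. All 9 were among the 14752 genes that passed the filter on low counts over the whole series.

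The INK4 proteins bind CDK4 and CDK6 and keep cyclin D from activating them, whereas the CIP/KIP proteins bind cyclin-CDK complexes and block cyclin E-CDK2 above all. Active CDKs phosphorylate the RB family, which releases the E2F transcription factors and lets the cell pass from G1 into S phase. Mouse embryonic stem cells are known for a short G1 phase, in which RB is largely phosphorylated and CDK inhibitors are scarce. The study reports a larger share of cells in G1 for its rhesus cells than for its mouse cells.

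All libraries came from LyonES-tGFP-(S3), a rhesus monkey embryonic stem cell line that is 1 clone and carries a tauGFP transgene under the CAG promoter and a lentiviral STAT3-ERT2 transgene, a STAT3 that tamoxifen activates. Primed cells gave 6 libraries, and the same line after conversion with the naive protocols TL-CDK8i, TL2i, LCDM (EPS), t2iLGöY, 4i/L/b, NHSM-v and E-NHSM gave 3 libraries each. Tamoxifen and LIF were part of TL2i, with MEK and GSK3β inhibitors, and of TL-CDK8i, in which a CDK8/19 inhibitor took the place of those 2 inhibitors. Primed cells were passaged in clumps and converted cells as single cells, so protocol and passaging cannot be told apart. The labels do not say whether the libraries of a group came from separate cultures, so the p-values measure the spread between these libraries, which may be technical.

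Libraries held 7111886 to 20760914 counts, with a median of 12201171, and 3 counts, taken as the floor of detection, corresponded to 0.141 to 0.429 CPM, the counts scaled to library size. The label naive was at odds with the pluripotency markers in 5 protocols. POU5F1, NANOG, SOX2, PRDM14, TDGF1, LIN28A and DNMT3B together reached 5436 to 6130 CPM in primed, 6294 to 6351 CPM in E-NHSM and 1514 to 2118 CPM in TL-CDK8i libraries, but 121 to 514 CPM in the other 5. NANOG was at or under the floor in LCDM (EPS), t2iLGöY, 4i/L/b and NHSM-v. Trophoblast and endoderm markers were also called higher in some cultures, most of them in TL2i, with 3 of 5 tested trophoblast and 4 of 6 endoderm markers, beside 2 of 5 and 1 of 6 in TL-CDK8i. The endoderm marker AFP was lower than primed in TL2i (-5.78 on the log2 scale, adjusted p = 0.00094). Summed trophoblast markers, at 102 to 108 CPM in TL2i, were higher in LCDM (EPS) (173 to 189 CPM) and t2iLGöY (111 to 163 CPM), mostly TFAP2A. They were also higher in TL-CDK8i (150 to 236 CPM), mostly KRT7. The columns of the primed libraries carry the letters J and K, 3 of each, whose meaning was not given in the sources used here, and several members differed between them, as stated beside each result.

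Members were compared with primed cells by edgeR's quasi-likelihood test across all genes, and a change was called at an adjusted p under 0.05. In E-NHSM, 1 of 8 tested members was higher, where 11.1% of all tested genes were higher and 15.1% lower. In NHSM-v, 4 of 9 were higher, against 28.0% higher and 30.6% lower among all genes. In 4i/L/b, 4 of 9 were higher, against 26.6% higher and 29.0% lower. In TL2i, 4 of 9 were higher, against 25.6% higher and 25.2% lower. In t2iLGöY, 6 of 9 were higher, against 27.1% higher and 27.2% lower. In LCDM (EPS), 5 of 9 were higher, against 28.2% higher and 28.9% lower. In TL-CDK8i, 4 of 8 were higher and 1 lower, against 22.3% higher and 23.8% lower. The members' median log2 fold change was 0.10 in E-NHSM and lay between 0.60 in TL-CDK8i and 1.47 in LCDM (EPS) elsewhere, while the median over all tested genes stayed between -0.02 and 0.07. The only member called lower against primed was CDKN1C in TL-CDK8i. CDKN2C was not tested in E-NHSM and TL-CDK8i, where its counts were too low. All 7 comparisons share the primed libraries, so they are not independent of each other.

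**Figure D1:**
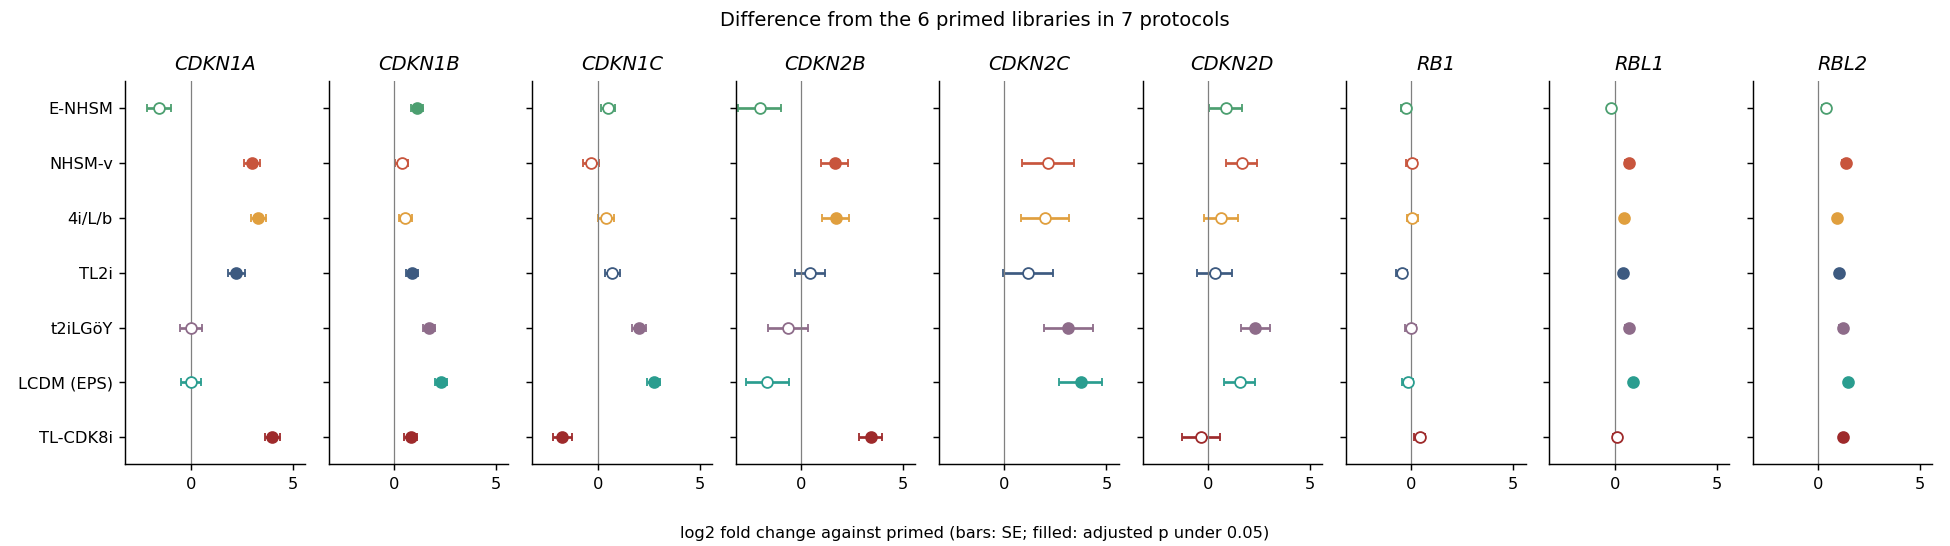
Log2 fold change of each member against the 6 primed libraries in the 7 protocols, with SE as bars and filled points where the adjusted p was under 0.05. CDKN1A and CDKN2B lay farthest to the right in TL-CDK8i (4.00 and 3.42), CDKN1B and CDKN1C in LCDM (EPS) (2.30 and 2.75), and RB1 stayed between -0.47 and 0.40.

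CDKN1A encodes p21, a CIP/KIP protein that can arrest cells in G1, and its level was higher than primed in 4 protocols. The 6 primed libraries ran from 2.66 to 14.8 CPM with a median of 5.67 CPM. The TL-CDK8i libraries held 94.0, 103 and 144 CPM. All 3 lay above every other library of the series, and the difference from primed was 16.0-fold (log2 fold change 4.00 ± 0.38 SE, adjusted p = 1e-06). The 4i/L/b libraries held 68.4, 70.1 and 73.4 CPM, 9.99-fold above primed (3.32 ± 0.38, adjusted p = 6.2e-06). NHSM-v libraries held 54.3, 55.9 and 59.2 CPM, 8.07-fold above primed (3.01 ± 0.39, adjusted p = 8e-06). TL2i libraries held 29.1, 31.4 and 36.6 CPM, 4.70-fold above primed (2.23 ± 0.41, adjusted p = 0.00044). In this order, from TL-CDK8i down to TL2i, no group overlapped its neighbour, and none overlapped the primed range.

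In the other 3 protocols CDKN1A was not called. The t2iLGöY libraries (5.74 to 8.67 CPM) and the LCDM (EPS) libraries (6.09 to 8.28 CPM) lay within the primed range, with log2 fold changes of 0.01 ± 0.53 and 0.02 ± 0.50 SE. E-NHSM libraries held 1.67, 2.45 and 2.87 CPM, the lowest mean of any group, and overlapped only the lowest primed library. Their log2 fold change was -1.56 ± 0.59 (adjusted p = 0.058), and it passed the test without primed library K2 (-1.70, adjusted p = 0.046) or K3 (-1.73, adjusted p = 0.033).

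Fibroblast markers moved with CDKN1A in part. The summed level of COL1A1, COL1A2, COL3A1, THY1, LUM, DCN and PDGFRB was 1137 to 2407 CPM in primed cells, 8667 to 11213 CPM in TL-CDK8i, 11594 to 15060 CPM in 4i/L/b, 7842 to 8372 CPM in NHSM-v and 2949 to 5732 CPM in TL2i. Of these 7 markers, 6 were higher than primed in TL2i, NHSM-v and 4i/L/b each, and 5 in TL-CDK8i. THY1 went the other way in TL2i (-2.50, adjusted p = 6.3e-08) and 4i/L/b (-0.40, adjusted p = 0.042). The sum was also above the primed range in t2iLGöY, at 3418 to 4022 CPM, where CDKN1A stayed at the primed level and LUM and DCN were at or under the floor, as they were in primed cells and E-NHSM. Of that sum in t2iLGöY, COL1A1 alone held 3139 ± 289 CPM. COL3A1 and PDGFRB rose there too, but COL1A2 (-0.53, adjusted p = 0.0042) and THY1 (-2.41, adjusted p = 4.2e-08) fell. In LCDM (EPS) and E-NHSM the sum was lower, at 769 to 999 and 405 to 451 CPM. Yet in LCDM (EPS), where CDKN1A stayed at the primed level, LUM and DCN rose. LUM stood there at 3.40 ± 1.31 CPM (8.51, adjusted p = 0.00063) and DCN at 7.12 ± 2.73 CPM (9.57, adjusted p = 8e-05). COL1A1, COL1A2, THY1 and PDGFRB fell there, and COL3A1 was not called. The part of these cells in the level of CDKN1A was not tested, and in bulk RNA more cells of a type and more RNA per cell cannot be told apart.

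Several genes of the response to cell stress were examined beside CDKN1A, and in TL-CDK8i 5 of them rose. ZMAT3, which encodes an RNA-binding protein, rose from 15.2 ± 6.92 CPM in primed (SD, n = 6) to 118 ± 5.28 CPM (SD, n = 3), a log2 fold change of 2.88 (adjusted p = 1.5e-06). FAS, the death receptor gene, rose from 11.9 ± 3.83 to 46.3 ± 3.25 CPM (1.91, adjusted p = 9.3e-06). MDM2, a ubiquitin ligase gene, rose from 66.8 ± 14.1 to 190 ± 3.13 CPM (1.45, adjusted p = 1.4e-06). SESN1 (1.44, adjusted p = 7.5e-06) and GADD45A (1.52, adjusted p = 5.1e-08) rose as well, whereas MDM4 fell by 0.53 on the log2 scale (adjusted p = 0.042) and BBC3 was not called (0.56, adjusted p = 0.13). These genes moved in both directions in the other protocols with a high CDKN1A. MDM2 fell in NHSM-v (-0.57, adjusted p = 0.0089), 4i/L/b (-0.44, adjusted p = 0.035) and TL2i (-0.51, adjusted p = 0.017). GADD45A stood at 40.2 ± 8.04 CPM in NHSM-v against 39.9 ± 1.86 CPM in primed cells, and rose in 4i/L/b (1.69, adjusted p = 4.6e-09) and TL2i (0.52, adjusted p = 0.0015). ZMAT3 rose in 4i/L/b (0.93, adjusted p = 0.028) and TL2i (1.01, adjusted p = 0.017) but was not called in NHSM-v (0.50, adjusted p = 0.24). MDM4 rose in 4i/L/b (0.77, adjusted p = 0.00096) and TL2i (0.97, adjusted p = 0.00019). FAS was not called in any of these protocols. SESN1 rose in TL2i (0.85, adjusted p = 0.0014) and had the highest median log2 fold change of the genes examined over the 7 protocols (0.67).

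CDKN1B encodes p27, the CIP/KIP protein that restrains cyclin E-CDK2 in quiescent cells and is removed by ubiquitination at the entry into S phase. Its level was higher than primed in 5 protocols, and the ordering was not that of CDKN1A. Primed libraries ran from 9.38 to 27.6 CPM with a median of 22.4 CPM. LCDM (EPS) libraries held 92.3, 98.6 and 104 CPM, 4.92-fold above primed (log2 fold change 2.30 ± 0.28 SE, adjusted p = 9.5e-06). The t2iLGöY libraries held 53.4, 66.5 and 74.1 CPM, 3.30-fold above primed (1.72 ± 0.30, adjusted p = 0.00019). These groups overlapped neither each other nor any other group. E-NHSM libraries held 38.2, 43.8 and 49.2 CPM, 2.19-fold above primed (1.13 ± 0.29, adjusted p = 0.0067), and CDKN1B was the only member called in that protocol. TL2i libraries held 33.5, 35.7 and 40.6 CPM, 1.83-fold above primed (0.87 ± 0.31, adjusted p = 0.029). TL-CDK8i libraries held 30.6, 35.3 and 42.2 CPM, 1.75-fold above primed (0.80 ± 0.31, adjusted p = 0.047). From E-NHSM downwards each group overlapped its neighbour in the order of levels.

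The last 2 calls of CDKN1B were fragile. The TL2i call was lost without TL2i replicate 1 (adjusted p = 0.1), 2 (0.071) or 3 (0.059). The TL-CDK8i call was lost without TL-CDK8i replicate 1 (0.066), 2 (0.18) or 3 (0.094) and without primed library J1 (0.061), J2 (0.075) or J3 (0.054). In 4i/L/b (28.4 to 31.9 CPM) every library lay above the primed range without passing the test (0.55 ± 0.32, adjusted p = 0.16), and NHSM-v (22.0 to 30.9 CPM) overlapped it (0.37 ± 0.33, adjusted p = 0.35). The primed libraries themselves were split. Those of letter J ran from 9.38 to 19.3 CPM and those of letter K from 25.4 to 27.6 CPM, with no overlap. Against the J libraries alone CDKN1B passed the test in NHSM-v (1.03, adjusted p = 0.015) and 4i/L/b (1.198, adjusted p = 0.0054) as well, and against the K libraries alone the call in TL-CDK8i was lost (0.38, adjusted p = 0.059). Against the J libraries alone the log2 fold changes of the called protocols were 1.75 in E-NHSM, 1.501 in TL2i, 2.34 in t2iLGöY, 2.94 in LCDM (EPS) and 1.44 in TL-CDK8i.

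The ligases that mark p27 and p21 for degradation were examined as a list of 9 genes. They were lower than primed at 7 of 9 in NHSM-v and 4i/L/b, 6 in TL2i and LCDM (EPS), 5 in t2iLGöY and TL-CDK8i and 1 in E-NHSM, with list medians from -0.53 to 0.02 on the log2 scale. CKS1B, the cofactor that SKP2 needs to recognise p27, had the lowest median log2 fold change (-0.85). It fell from 53.7 ± 7.87 CPM in primed to 21.5 ± 1.71 CPM in LCDM (EPS) (-1.32, adjusted p = 8.6e-06). SKP2, the F-box protein that binds p27, had the highest (-0.01), and it rose in LCDM (EPS) from 193 ± 18.7 to 279 ± 9.44 CPM (0.53, adjusted p = 0.00013), in E-NHSM (0.36, adjusted p = 0.0069) and in t2iLGöY (0.29, adjusted p = 0.018). CUL1, the scaffold of the SKP2 ligase, fell in all 7 protocols, by 0.34 to 0.53 on the log2 scale. These are mRNA levels, and the proteins were not measured here.

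CDKN1C encodes p57, the imprinted CIP/KIP gene with a role in exit from the cell cycle during development. It was higher than primed in 2 protocols and lower in 1. Primed libraries ran from 4.24 to 24.3 CPM with a median of 14.4 CPM. LCDM (EPS) libraries held 102, 104 and 109 CPM, 6.71-fold above primed (log2 fold change 2.75 ± 0.33 SE, adjusted p = 7.3e-06). The t2iLGöY libraries held 58.8, 62.9 and 66.6 CPM, 4.09-fold above primed (2.03 ± 0.34, adjusted p = 0.00015). As with CDKN1B, these groups overlapped neither each other nor the rest. TL-CDK8i libraries held 3.38, 5.24 and 5.97 CPM, and CDKN1C fell by 1.73 ± 0.47 on the log2 scale (adjusted p = 0.0072). That range overlapped primed library J1 at 4.24 CPM and no other primed library. E-NHSM (20.8 to 23.5 CPM), NHSM-v (11.1 to 13.5 CPM), 4i/L/b (18.0 to 23.6 CPM) and TL2i (21.5 to 29.3 CPM) overlapped the primed range and were not called.

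CDKN1C also split the primed libraries, at 4.24, 12.0 and 14.2 CPM for letter J and 14.5, 23.8 and 24.3 CPM for letter K. Against the J libraries alone the fall in TL-CDK8i lost its call (-1.09, adjusted p = 0.099), and CDKN1C passed the test as higher in E-NHSM (1.14, adjusted p = 0.031), 4i/L/b (1.04, adjusted p = 0.045) and TL2i (1.35, adjusted p = 0.015). Against the K libraries alone it passed as lower in NHSM-v (-0.74, adjusted p = 0.023). Against J alone the log2 fold changes were 2.65 in t2iLGöY and 3.40 in LCDM (EPS).

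Neural markers as a sum were highest in the same 2 protocols as CDKN1B and CDKN1C. The summed level of PAX6, SOX1, NES, DCX, TUBB3, STMN2, ELAVL3, ZIC1, NEUROD1 and NEUROG2 was 5650 to 5759 CPM in LCDM (EPS) and 4102 to 4510 CPM in t2iLGöY, beside 2240 to 2585 CPM in primed cells. Of the 10 markers, 10 were higher than primed in LCDM (EPS) and 9 in t2iLGöY. The same number, 9, were higher in NHSM-v, where the sum was 2796 to 2862 CPM and CDKN1B and CDKN1C were not called. SOX1, DCX, TUBB3, STMN2, ELAVL3 and ZIC1 were also higher in 4i/L/b (sum 2799 to 3024 CPM) and TL2i (2679 to 2859 CPM). PAX6 and NES were not called in either. DCX, TUBB3, STMN2 and ZIC1 were higher in TL-CDK8i, where the sum was 2036 to 2151 CPM. In E-NHSM, where CDKN1B was called, the sum was lower than in any primed library, at 1231 to 1366 CPM. Most of the primed sum was NES, at 2431 ± 127 CPM. NES rose in LCDM (EPS) (0.35, adjusted p = 3.6e-05). It fell in E-NHSM (-0.92, adjusted p = 2.1e-09), TL-CDK8i (-0.41, adjusted p = 8.8e-05), t2iLGöY (-0.37, adjusted p = 8.5e-05) and NHSM-v (-0.34, adjusted p = 6.8e-05). In NHSM-v, ZIC1 (8.70) and TUBB3 (4.80) rose on the log2 scale, and SOX1 was higher than in t2iLGöY (41.5 against 13.2 CPM). SOX1 and NEUROD1 were at or under the floor in primed cells. The part of such cells in the levels of CDKN1B and CDKN1C was not tested.

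Genes of the imprinted region around CDKN1C were examined as a list of 7. Against primed cells, 1 was higher and 3 lower in LCDM (EPS), 2 were lower in t2iLGöY, and 1 was higher and 2 lower in TL-CDK8i. The gene called higher was IGF2 in both LCDM (EPS) and TL-CDK8i. In TL-CDK8i against TL2i, where CDKN1C fell, 1 was higher and 5 were lower, with a list median of -0.88 on the log2 scale beside -0.04 over all genes. PHLDA2, an imprinted regulator of placental growth, had the lowest median log2 fold change of the list (-2.16) and KCNQ1, the potassium channel gene, the highest (0.43). PHLDA2 stood at 12.9 CPM in primed cells, 0.373 ± 0.155 CPM in LCDM (EPS) and 0.0227 ± 0.0394 CPM in t2iLGöY (SD, n = 3), the protocols in which CDKN1C rose. It also fell where CDKN1C was not called, in TL2i (-2.47, adjusted p = 5.8e-05), E-NHSM (-2.16, adjusted p = 0.00019) and 4i/L/b (-0.93, adjusted p = 0.024). In TL-CDK8i, where CDKN1C fell, PHLDA2 fell as well (-0.78, adjusted p = 0.046). IGF2, the imprinted growth factor gene, stood at 0.219 CPM in primed cells and at 112 ± 19.2 CPM in TL2i and 62.6 ± 27.2 CPM in TL-CDK8i. It was also higher in 4i/L/b (89.1 ± 19.3 CPM), LCDM (EPS) (7.36 ± 2.12 CPM) and NHSM-v (3.73 ± 1.10 CPM). In t2iLGöY it was not called (2.96, adjusted p = 0.069), and in E-NHSM it was not tested.

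**Figure D2:**
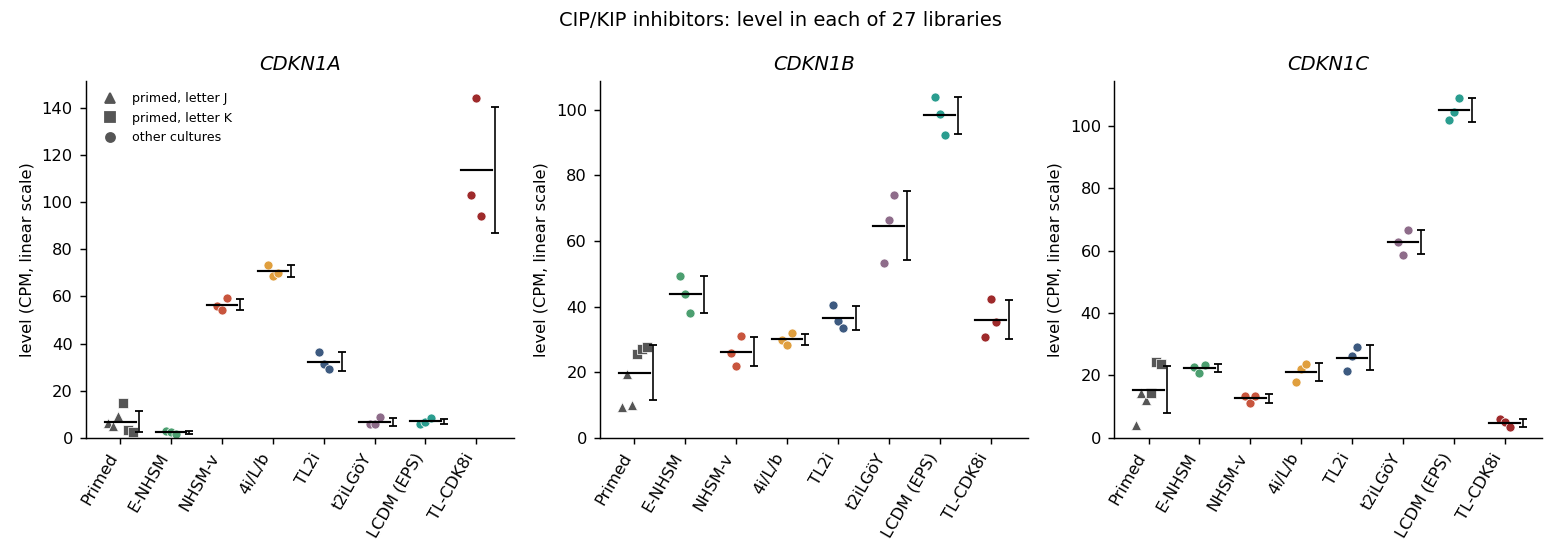
Level of CDKN1A, CDKN1B and CDKN1C in each of the 27 libraries, in CPM on a linear scale, with a line at the group mean and bars for SD; triangles and squares mark primed libraries of letter J and K. The highest group was TL-CDK8i for CDKN1A (114 ± 26.7 CPM) and LCDM (EPS) for CDKN1B (98.2 ± 5.76 CPM) and CDKN1C (105 ± 3.71 CPM).

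The make-up of the CIP/KIP counts shows the contrast between protocols without any scaling between libraries. CDKN1A took 18.7% ± 12.2 of the counts of the 3 genes in primed cells (SD, n = 6), with a range from 4.93% to 32.2%. In TL-CDK8i its share was 73.3% ± 2.23, in NHSM-v 59.4% ± 2.53 and in 4i/L/b 58.0% ± 2.38 (SD, n = 3), all outside the primed range. In TL2i it was 34.1% ± 2.77, which touched that range. It was 5.05% ± 0.716 in t2iLGöY, 3.38% ± 0.647 in E-NHSM and 3.32% ± 0.562 in LCDM (EPS). CDKN1C took 50.0% ± 1.98 in LCDM (EPS) and 47.0% ± 3.86 in t2iLGöY but 3.18% ± 0.944 in TL-CDK8i, beside 35.2% ± 9.45 in primed cells. CDKN1B took the largest share in E-NHSM, at 63.8% ± 3.02, and the smallest in TL-CDK8i, at 23.5% ± 2.67. Counts were not corrected for transcript length, so the shares compare cultures for a gene and not the 3 genes with each other.

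**Figure D3:**
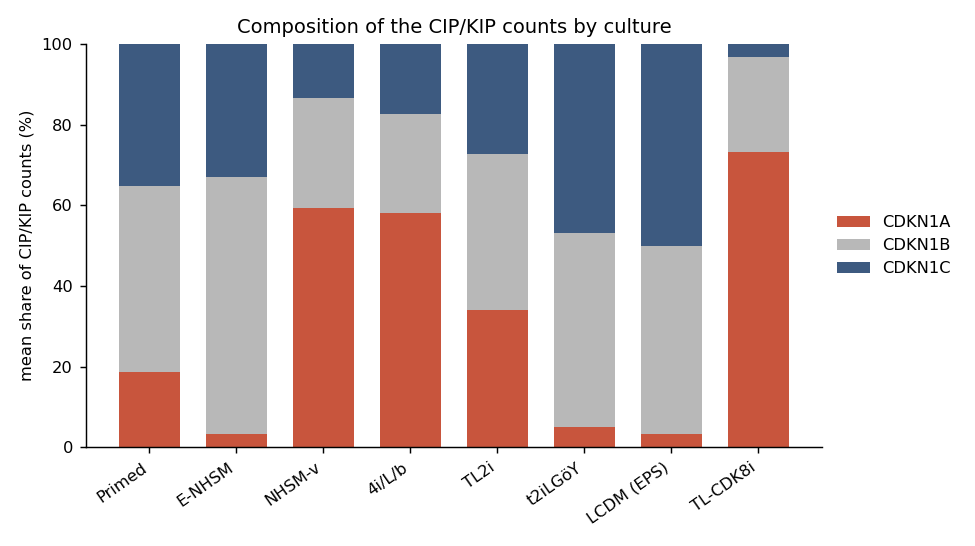
Mean share of the summed CDKN1A, CDKN1B and CDKN1C counts taken by each gene in the 8 cultures, as stacked bars from 0 to 100%. The CDKN1A segment ranges from 3.32% in LCDM (EPS) to 73.3% in TL-CDK8i.

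Among the regulators that act on transcription of these genes, MYC, which represses CDKN1A and CDKN2B, fell in all 7 protocols. Primed libraries held 357 ± 21.4 CPM of it (SD, n = 6), beside 155 ± 8.77 CPM in E-NHSM, 164 ± 21.3 CPM in TL-CDK8i and 4.76 ± 4.29 CPM in LCDM (EPS), where the log2 fold change was -6.25 (adjusted p = 9.7e-09). In TL2i it stood at 39.3 ± 2.00 CPM. Against TL2i, TL-CDK8i had higher levels of MYC (2.03, adjusted p = 2.2e-09), CDKN1A (1.78) and CDKN2B (3.00). Whether MYC or the other regulators set the levels of the members was not tested. SMAD3, which carries TGF-β signals to CDKN1A and CDKN2B, had the highest median of the 7 regulators tested in all protocols (0.76) and was highest in NHSM-v, at 203 ± 9.16 CPM against 76.4 ± 10.7 CPM in primed (1.39, adjusted p = 9.1e-08). FOXO1, a forkhead activator of CDKN1B, fell in 6 protocols and reached 9.95 ± 0.355 CPM in LCDM (EPS), against 120 ± 11.9 CPM in primed cells (-3.59, adjusted p = 4.8e-11). FOXO3, the related factor, rose in E-NHSM from 94.9 ± 20.3 to 187 ± 3.97 CPM (0.97, adjusted p = 7.2e-05) and fell in 4 others. Of the regulators tested in each comparison with primed cells, 2 or 3 were higher and 2 to 4 lower.

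CDKN2B encodes p15, the INK4 protein that TGF-β induces, and its gene lies beside CDKN2A. It was higher than primed in 3 protocols, all of which also had a high CDKN1A. Primed libraries ran from 0.540 to 8.04 CPM with a median of 1.97 CPM and held 5 to 94 counts. TL-CDK8i libraries held 23.5, 31.1 and 43.5 CPM, above every other library of the series, and the difference from primed was 10.7-fold (log2 fold change 3.42 ± 0.56 SE, adjusted p = 0.00017). NHSM-v libraries held 8.80, 9.59 and 9.88 CPM (1.66 ± 0.67, adjusted p = 0.044). The 4i/L/b libraries held 6.25, 11.5 and 11.8 CPM (1.70 ± 0.67, adjusted p = 0.044) and overlapped the primed range. The NHSM-v and 4i/L/b groups overlapped each other, and both lay above TL2i, at 3.19, 3.96 and 4.84 CPM, which overlapped the primed range and was not called (0.45 ± 0.74, adjusted p = 0.64).

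The primed level of CDKN2B depended on library K1, whose 8.04 CPM was the highest of the 6. Without it the log2 fold change was 4.11 in TL-CDK8i (adjusted p = 1.1e-05), 2.34 in NHSM-v (adjusted p = 0.0047) and 2.38 in 4i/L/b (adjusted p = 0.0047). The calls in NHSM-v and 4i/L/b were lost without primed library J1 (adjusted p 0.066 and 0.076), J2 (0.05 and 0.052), K2 (0.066 and 0.071) or K3 (0.061 and 0.063). They were also lost without any 1 library of the protocol, at adjusted p from 0.083 to 0.11 in NHSM-v and from 0.053 to 0.15 in 4i/L/b, and against the K libraries alone (0.07 and 0.071). At the low end, E-NHSM held 0.377 to 1.00 CPM (-2.03 ± 1.04, adjusted p = 0.17), LCDM (EPS) 0.108 to 1.54 CPM (-1.65 ± 1.05, adjusted p = 0.2) and t2iLGöY 0.682 to 3.54 CPM (-0.64 ± 0.97, adjusted p = 0.6), none of which passed the test.

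CDKN2C encodes p18, another INK4 protein, and it was the member with the fewest counts. Primed libraries held 12, 2 and 0 counts for letter J and 9, 1 and 0 for letter K, so 4 of the 6 were at or under the floor of 3 counts. LCDM (EPS) libraries held 99, 101 and 109 counts, at 4.67, 5.75 and 5.90 CPM, and the log2 fold change was 3.75 ± 1.05 (adjusted p = 0.0076). The t2iLGöY libraries held 38, 52 and 62 counts, at 2.75, 3.47 and 4.23 CPM (3.12 ± 1.21, adjusted p = 0.04). Neither protocol overlapped the primed range or the other. Without primed library J1 the log2 fold changes were 4.59 in LCDM (EPS) and 3.96 in t2iLGöY. The t2iLGöY call was lost without primed library J2 (0.066), K2 (0.07) or K3 (0.054) and without t2iLGöY replicate 1 (0.12), 2 (0.091) or 3 (0.075), and against the J libraries alone (2.72, adjusted p = 0.094). TL2i (0.699 to 1.23 CPM), NHSM-v (0.617 to 2.71 CPM) and 4i/L/b (1.15 to 2.31 CPM) overlapped the primed range. E-NHSM libraries held no count of CDKN2C, which allows up to 3 counts or 0.141 to 0.167 CPM, and TL-CDK8i libraries held 0, 1 and 3 counts, so in both it was not detectable at this depth.

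CDKN2D encodes p19, the INK4 protein whose level cycles with the cell, and it was called in 1 protocol. The t2iLGöY libraries held 7.80, 12.8 and 16.2 CPM, above the primed range of 0 to 5.48 CPM (median 2.19 CPM), with a log2 fold change of 2.32 ± 0.71 (adjusted p = 0.013). Without t2iLGöY replicate 2 the adjusted p was 0.071. NHSM-v libraries, at 5.98, 7.61 and 10.6 CPM, also lay above every primed library but did not pass the test (1.66 ± 0.76, adjusted p = 0.074), and LCDM (EPS) libraries, at 5.01, 7.85 and 9.33 CPM, overlapped them (1.56 ± 0.76, adjusted p = 0.093). Both passed without primed library J3, which held no count of CDKN2D (1.40, adjusted p = 0.025, and 1.31, adjusted p = 0.032), and without K1 (2.09, adjusted p = 0.032, and 1.95, adjusted p = 0.045). E-NHSM ran from 1.84 to 6.73 CPM, and 4i/L/b, TL2i and TL-CDK8i from 1.55 to 4.62 CPM, all overlapping primed cells. In the order of levels each group overlapped the next.

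**Figure D4:**
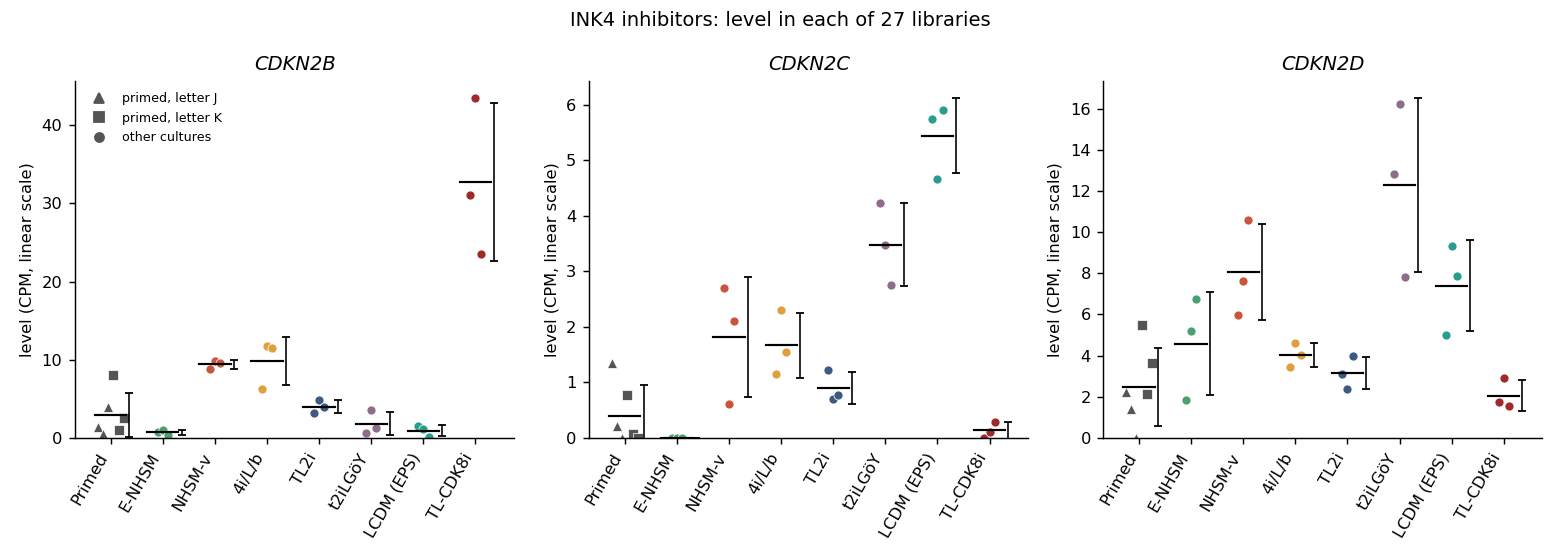
Level of CDKN2B, CDKN2C and CDKN2D in each of the 27 libraries, in CPM on a linear scale, with a line at the group mean and bars for SD. TL-CDK8i stood apart for CDKN2B (32.7 ± 10.1 CPM), LCDM (EPS) and t2iLGöY for CDKN2C (5.44 ± 0.673 and 3.48 ± 0.742 CPM), and t2iLGöY had the highest mean for CDKN2D (12.3 ± 4.23 CPM).

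The chromatin regulators and transcription factors that act on the INK4 locus, 11 in all, moved in both directions. BMI1, a Polycomb repressor of the locus, had the highest median log2 fold change (1.88) and CBX7, another Polycomb repressor, the lowest (-1.09). BMI1 was higher than primed in 5 protocols and reached 113 ± 16.8 CPM in LCDM (EPS) against 19.2 CPM (2.55, adjusted p = 2.6e-06). It was lower in E-NHSM, at 7.27 ± 3.10 CPM (-1.41, adjusted p = 0.01), and in TL-CDK8i it stood at 32.0 ± 5.01 CPM without passing the test (0.68, adjusted p = 0.083). CBX7 fell in 5 protocols, to 3.08 ± 0.245 CPM in LCDM (EPS) from 16.4 CPM, and stood at 20.2 ± 1.22 CPM in TL-CDK8i (0.26, adjusted p = 0.41). EZH2, the Polycomb methyltransferase, fell in TL-CDK8i from 152 to 90.6 ± 2.88 CPM (-0.80, adjusted p = 1.3e-05) and in E-NHSM (-0.42, adjusted p = 0.0041) and rose in LCDM (EPS), t2iLGöY and TL2i. From 2 to 6 of the 11 were higher and from 3 to 5 lower in each protocol.

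RB1, the retinoblastoma gene itself, did not pass the test against primed cells in any protocol, by edgeR or by DESeq2, and the smallest unadjusted p of the edgeR tests was 0.112, in TL2i. Group means ran from 112 ± 10.5 CPM in TL2i to 213 ± 16.9 CPM in TL-CDK8i (SD, n = 3). The primed libraries alone spanned more than that range, from 69.3 to 217 CPM with a median of 157 CPM. They held 69.3, 116 and 126 CPM for letter J and 188, 213 and 217 CPM for letter K, without overlap, so the primed mean of 155 CPM describes neither set. The result turned on which primed libraries were used. Against the J libraries alone RB1 was higher in TL-CDK8i (1.00, adjusted p = 0.0018), NHSM-v (0.63, adjusted p = 0.0094), 4i/L/b (0.65, adjusted p = 0.013) and t2iLGöY (0.54, adjusted p = 0.028). Against the K libraries alone it was lower in 6 protocols, from -0.35 in 4i/L/b (adjusted p = 0.0021) and -0.39 in NHSM-v (adjusted p = 0.00098) to -0.89 in TL2i (adjusted p = 1.1e-05), and in TL-CDK8i it stood at -0.0027 (adjusted p = 0.98). Without primed library J3 alone, RB1 was lower in TL2i (-0.62, adjusted p = 0.016). With all 8 groups in 1 fit it was lower in TL2i (-0.47, adjusted p = 0.041) and higher in TL-CDK8i (0.45, adjusted p = 0.046).

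Among the converted cultures, whose libraries varied less than the primed ones, RB1 levels could be ordered in part. TL-CDK8i, at 198, 208 and 231 CPM, lay above all other converted libraries. TL2i, at 104, 109 and 124 CPM, lay below E-NHSM, at 125, 131 and 134 CPM, by a small margin, but LCDM (EPS), at 120 to 148 CPM, overlapped both. The groups between TL-CDK8i and TL2i overlapped their neighbours in the order of means.

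RBL1 encodes p107, the pocket protein that is itself an E2F target and binds E2F4, and its level was higher than primed in 5 protocols. Primed libraries ran from 27.5 to 44.7 CPM with a median of 39.7 CPM. LCDM (EPS) libraries held 63.1, 72.2 and 76.8 CPM, 1.88-fold above primed (log2 fold change 0.91 ± 0.15 SE, adjusted p = 0.00017). NHSM-v libraries held 54.2, 57.7 and 72.4 CPM, 1.60-fold above primed (0.68 ± 0.17, adjusted p = 0.0026). The t2iLGöY libraries held 50.6, 59.6 and 67.1 CPM, also 1.60-fold above primed (0.68 ± 0.17, adjusted p = 0.0035). These 3 groups overlapped in the order of levels and lay above the primed range. The differences in 4i/L/b (50.3 to 56.2 CPM, 0.44 ± 0.16, adjusted p = 0.027) and TL2i (46.1 to 51.8 CPM, 0.39 ± 0.15, adjusted p = 0.047) were smaller. The 4i/L/b call was lost without 4i/L/b replicate 1 (0.059), 2 (0.058) or 3 (0.11). The TL2i call was lost without TL2i replicate 1 (0.13), 2 (0.15) or 3 (0.075) and without each primed library except K2 (J1 0.063, J2 0.068, J3 0.059, K1 0.059, K3 0.051). E-NHSM (31.6 to 35.5 CPM) and TL-CDK8i (36.4 to 45.0 CPM) overlapped the primed range (-0.18 ± 0.17 and 0.10 ± 0.17).

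RBL2 encodes p130, the pocket protein that with E2F4 and the MuvB proteins forms the DREAM complex, the repressor of cell cycle genes in quiescence. It was the member called in the most protocols, 6 of 7. Primed libraries ran from 19.4 to 31.6 CPM with a median of 27.8 CPM. LCDM (EPS) libraries held 73.3, 74.4 and 75.7 CPM, 2.76-fold above primed (log2 fold change 1.47 ± 0.16 SE, adjusted p = 2.2e-06). NHSM-v libraries held 67.7, 70.2 and 72.4 CPM, 2.56-fold above primed (1.35 ± 0.16, adjusted p = 4.4e-06). TL-CDK8i libraries held 64.4, 65.3 and 65.6 CPM, 2.33-fold above primed (1.22 ± 0.16, adjusted p = 2.5e-05). The spread within these groups was small beside the step from primed cells, and no 2 of them overlapped. The t2iLGöY libraries (53.7 to 69.9 CPM, 1.21 ± 0.18, adjusted p = 4.2e-05), TL2i libraries (52.9 to 57.2 CPM, 1.03 ± 0.16, adjusted p = 0.00013) and 4i/L/b libraries (49.7 to 54.6 CPM, 0.92 ± 0.16, adjusted p = 0.00028) followed, each overlapping the next. E-NHSM libraries held 30.3, 32.3 and 42.9 CPM and overlapped the primed range (0.38 ± 0.19, adjusted p = 0.17). RBL2 split the primed libraries the other way from RB1, at 29.7, 31.4 and 31.6 CPM for letter J and 19.4, 24.3 and 25.8 CPM for letter K, and against K alone it was higher in E-NHSM too (0.60, adjusted p = 0.019). None of the 6 calls was lost when a library was left out.

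**Figure D5:**
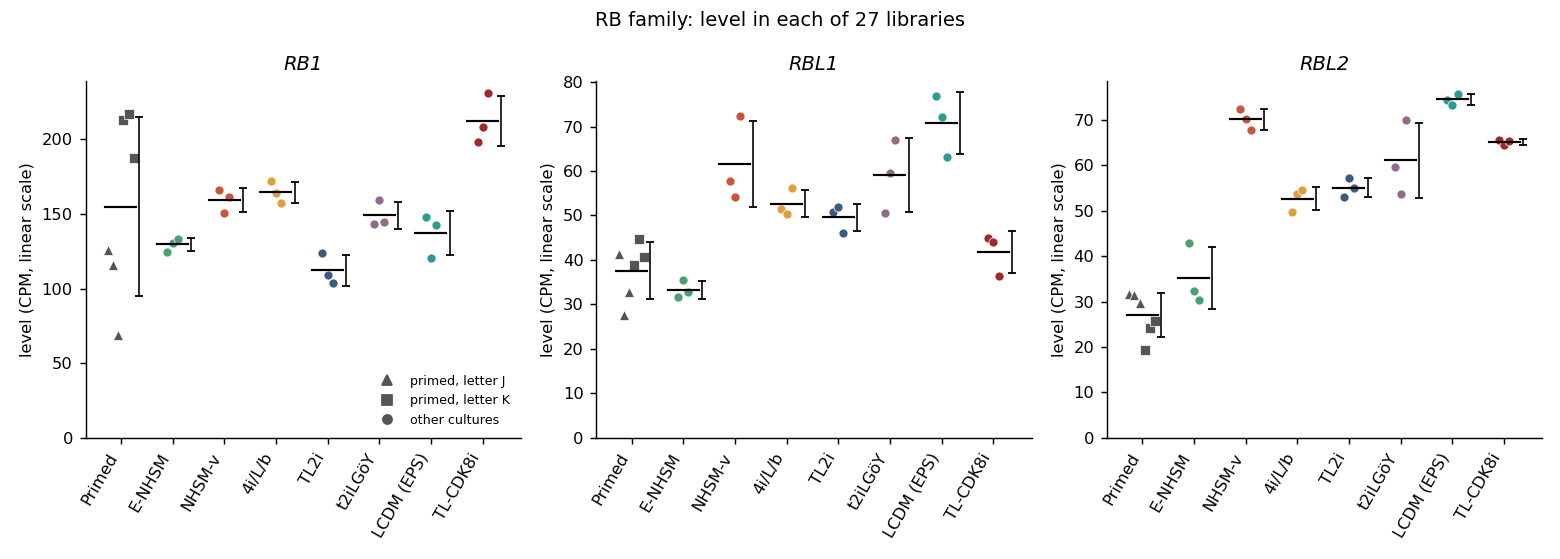
Level of RB1, RBL1 and RBL2 in each of the 27 libraries, in CPM on a linear scale, with a line at the group mean and bars for SD; triangles and squares mark primed libraries of letter J and K. For RB1 the primed libraries fall into 69.3 to 126 and 188 to 217 CPM by letter, while for RBL2 all libraries of 6 protocols lie above 31.6 CPM, the highest primed value.

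The partners of the RB family gave no common direction. Of the 10 E2F and DP genes, 5 were lower in E-NHSM, 1 was higher and 4 lower in TL-CDK8i, and 6 were higher and 1 lower in LCDM (EPS). E2F2, an activator of S phase genes, had the highest median log2 fold change of the list (0.82) and rose from 5.91 to 33.7 ± 2.65 CPM in LCDM (EPS) (2.54, adjusted p = 6e-05). E2F3, another activator, had the lowest (-0.46) and fell to 57.6 ± 2.90 from 114 CPM in TL-CDK8i (-1.04, adjusted p = 1.4e-05). E2F4, the partner of p107 and p130, fell in 4i/L/b and t2iLGöY, by 0.40 on the log2 scale in both (adjusted p = 0.019 and 0.029), and stood at 58.4 to 93.1 CPM as group means. Among the 7 MuvB genes and partners, MYBL2, which replaces p130 on MuvB in S phase, fell in all 7 protocols, from 429 CPM in primed cells to between 121 ± 19.7 CPM in t2iLGöY (-1.79, adjusted p = 5.4e-09) and 310 ± 17.9 CPM in TL-CDK8i (-0.52, adjusted p = 0.00017). LIN52, a MuvB subunit, had the highest median (0.85) and rose in 4i/L/b, t2iLGöY and LCDM (EPS).

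Most of the 15 S phase genes under E2F control were lower than primed in each protocol, 14 of them in t2iLGöY, 12 each in NHSM-v and 4i/L/b, 11 each in E-NHSM and TL2i, and 10 each in LCDM (EPS) and TL-CDK8i. In TL2i 2 were higher, and in t2iLGöY, LCDM (EPS) and TL-CDK8i 1 each. The list's median log2 fold change ran from -0.40 in E-NHSM and -0.42 in TL-CDK8i to -1.25 in t2iLGöY. MCM4, a subunit of the replicative helicase, fell in all 7, from 500 ± 37.6 CPM to between 181 ± 9.96 CPM in t2iLGöY and 351 ± 8.23 CPM in E-NHSM. RRM1, the large subunit of ribonucleotide reductase, had the highest median (0.17) and rose in LCDM (EPS) (0.68, adjusted p = 1.6e-06), t2iLGöY and TL2i. TYMS, the thymidylate synthase gene, rose in TL2i (0.53, adjusted p = 0.00083) and TL-CDK8i (0.39, adjusted p = 0.003). The proliferation markers MKI67 and TOP2A together fell from 2356 to 2716 CPM in primed libraries to 1164 to 1219 CPM in NHSM-v, and stood at 2247 to 2294 CPM in LCDM (EPS). MKI67 fell in all 7 protocols, from -0.29 in LCDM (EPS) (adjusted p = 0.00011) to -1.26 in 4i/L/b (adjusted p = 2.7e-09). TOP2A fell in NHSM-v, 4i/L/b and t2iLGöY and was not called in the others.

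Among the G1-S cyclins and CDKs, 9 of the 10 genes of the list were tested, and CDC25A was not analysed here. In E-NHSM 6 of the 9 were lower. In the other protocols 3 to 5 were higher and 2 or 3 lower. CDK6, a target of the INK4 proteins, had the highest median log2 fold change (1.06). It rose from 8.58 ± 4.52 CPM in primed cells to 50.2 ± 4.06 CPM in NHSM-v (2.52, adjusted p = 1e-05) and also in 4i/L/b, LCDM (EPS) and TL-CDK8i, and fell in E-NHSM to 2.22 ± 1.36 CPM (-1.96, adjusted p = 0.013). CCNE1, the cyclin E1 gene and an E2F target, had the lowest median (-1.49) and fell in 6 protocols, to 18.7 ± 3.10 CPM in NHSM-v from 98.1 ± 9.96 CPM (-2.42, adjusted p = 4.4e-09). The cyclin E2 gene, CCNE2, rose in NHSM-v (1.35, adjusted p = 0.00049), 4i/L/b (0.92, adjusted p = 0.01), t2iLGöY (1.14, adjusted p = 0.0042) and LCDM (EPS) (2.05, adjusted p = 3.7e-06). It fell in E-NHSM (-1.31, adjusted p = 0.03). CCND1, the cyclin D1 gene, rose in 5 protocols, to 631 ± 34.6 CPM in 4i/L/b from 192 ± 46.2 CPM (1.67, adjusted p = 9.1e-07), and fell in E-NHSM (-0.61, adjusted p = 0.0081). CCND2, the cyclin D2 gene, rose in TL-CDK8i, TL2i and 4i/L/b and fell in the other 4, to 146 ± 6.71 CPM in LCDM (EPS) from 472 ± 81.1 CPM (-1.70, adjusted p = 8.3e-08). CCNA2, the cyclin A2 gene and an E2F target, fell in all 7 protocols, by 0.28 in LCDM (EPS) (adjusted p = 0.008) to 0.95 in NHSM-v (adjusted p = 7.6e-07) on the log2 scale. CDK2, the kinase that CIP/KIP proteins block, rose in 5 protocols as well, to 246 ± 61.3 CPM in t2iLGöY from 95.4 ± 12.3 CPM (1.40, adjusted p = 1.1e-06), and fell in E-NHSM (-0.39, adjusted p = 0.024).

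TL-CDK8i was next set against TL2i, which shares LIF and tamoxifen with it and differs in the inhibitors. Of 8 tested members 3 were higher and 2 lower in TL-CDK8i, where 31.5% of all genes were higher and 33.3% lower. CDKN2B was 8.01-fold higher (log2 fold change 3.00 ± 0.24 SE, adjusted p = 1.3e-07), and CDKN1A was 3.43-fold higher (1.78 ± 0.15, adjusted p = 2.2e-07). RB1 was 1.85-fold higher (0.89 ± 0.10, adjusted p = 2.7e-06). CDKN1C fell by 2.44 ± 0.22 on the log2 scale (adjusted p = 4e-07), and RBL1 fell by 0.28 ± 0.12 (adjusted p = 0.046). The RBL1 call was lost without TL2i replicate 1 (0.13), 2 (0.17) or 3 (0.063) and without TL-CDK8i replicate 2 (0.066) or 3 (0.22). CDKN1B did not pass the test (-0.06 ± 0.13, adjusted p = 0.72), nor did CDKN2D (-0.65 ± 0.38, adjusted p = 0.16) or RBL2 (0.21 ± 0.09, adjusted p = 0.062), which passed without TL2i replicate 2 (0.27, adjusted p = 0.04). CDKN2C was not tested, with 0, 1 and 3 counts in TL-CDK8i and 11, 12 and 25 in TL2i. The cultures also differed in their markers, with 6 of 7 tested pluripotency markers higher in TL-CDK8i. Of the neural markers 6 of 8 were lower and 1 higher, of the endoderm markers 5 of 6 lower and 1 higher, of the trophoblast markers 3 of 5 lower and 1 higher, and of the fibroblast markers 1 of 7 lower and 3 higher. The part of these cells in the differences between the members was not tested.

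NHSM-v was likewise set against E-NHSM, as both are variants of naive human stem cell medium. Of 8 tested members 5 were higher and 2 lower in NHSM-v, where 33.4% of all genes were higher and 34.8% lower. CDKN1A was 24.0-fold higher (log2 fold change 4.58 ± 0.22 SE, adjusted p = 1.7e-10), the largest difference of that gene in the 9 comparisons. CDKN2B was 13.1-fold higher (3.71 ± 0.54, adjusted p = 2.5e-05). All 3 genes of the RB family rose, RBL2 by 0.99 ± 0.15 (adjusted p = 3.3e-05), RBL1 by 0.88 ± 0.15 (adjusted p = 8.7e-05) and RB1 by 0.29 ± 0.08 (adjusted p = 0.0039), of which RB1 was not called with all 8 groups in 1 fit (0.30, adjusted p = 0.24) or with library totals in place of TMM factors (0.17, adjusted p = 0.063). CDKN1B fell by 0.74 ± 0.17 (adjusted p = 0.0016) and CDKN1C by 0.82 ± 0.21 (adjusted p = 0.0031). CDKN2D did not pass the test (0.81 ± 0.48, adjusted p = 0.15). CDKN2C, at 6, 24 and 24 counts in NHSM-v and none in E-NHSM, was not tested. All 7 pluripotency markers were lower in NHSM-v, whereas all 10 neural markers (median log2 fold change 5.84) and all 7 fibroblast markers (5.03) were higher, and their part in these differences was not tested.

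The genes whose levels followed those of the members most closely over the 27 libraries are given as a description, by Pearson's r of log2 CPM, with libraries of 1 culture sharing their protocol. CDKN1A was nearest to ADAMTS1, a secreted protease gene (r = 0.94), ACTA2, the smooth muscle actin gene (r = 0.94), and IFFO2 (r = 0.94). ACTA2 stood at 43.0 ± 7.26 CPM in primed cells, 1407 ± 43.0 CPM in NHSM-v and 16.3 ± 2.76 CPM in LCDM (EPS). CDKN2B was nearest to IFFO2 as well (r = 0.89), followed by ARHGAP23 and COTL1, an actin-binding protein gene (both r = 0.89). CDKN1C was nearest to C14H11orf95 (r = 0.91), EPB41, which encodes a protein of the membrane skeleton (r = 0.91), and ZNF260 (r = 0.90), and CDKN1B to PAPOLG, a poly(A) polymerase gene (r = 0.88), CEBPG (r = 0.88) and ZNF397 (r = 0.87). The INK4 gene CDKN2C was nearest to GNG2, a G protein subunit gene (r = 0.92), KLHL7 (r = 0.91) and DMTN (r = 0.91), and CDKN2D to HID1 (r = 0.86), PDIK1L (r = 0.86) and TMEM108 (r = 0.86). RBL2 was nearest to ELOVL2, a fatty acid elongase gene (r = 0.95), SH3BGRL3 (r = 0.93) and CORO1A (r = 0.93), and RBL1 to SOGA3 (r = 0.92), WHSC1L1 (r = 0.92) and PHF2, a histone demethylase gene (r = 0.92). RB1 had no neighbour above r = 0.79 (WASF1, followed by NANOS1 at 0.79 and SRPK2 at 0.77).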

How the data were processed

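RNA of rhesus embryonic stem cells was sequenced from 200 ng per library (directional mRNA kit, single reads of 75 bp). The authors deposited whole-number read counts per gene, without normalization. The submitters' processing notes name bcl2fastq, cutadapt, HISAT2 and HTSeq. Versions, genome build and annotation are not given in the sources used here. All 27 columns were used, the 6 primed ones by group only, since their names do not match single labels, and 2 primed sets with the same numbers exist. No row was without a gene name.

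Counts were tested with edgeR 4.0.16 in R 4.3.3 (glmQLFit and glmQLFTest, TMM factors, filterByExpr, only the libraries of each comparison), with Benjamini-Hochberg adjustment over all genes tested and a threshold of 0.05. SE is the log2 fold change divided by the square root of F. Levels are CPM with TMM factors over all libraries. The floor of 3 counts covers counting error only. Genes named are the 10 members, the genes of each fixed list with the highest and lowest median log2 fold change over the 7 protocols, and the 3 genes most correlated with each member (log2 CPM, prior count 2). Other list genes were named after their values were seen. Of 133 list symbols, 131 were found, and some list genes are not reported here. The members and lists were chosen with earlier results of these data known. The test was checked on simulated counts. All 36 pairs of libraries within groups differed by more than sampling noise. DESeq2 1.42.0, other scalings, filters, primed sets, a replicate block and leaving out each library were tried as alternatives.

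TL-CDK8i is called TL-CDK8/19i in the study. Clonality of the line means that differences between clones were not sampled.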

Additional observations from a re-analysis of the deposited data

How the results depend on the processing

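Over the 9 comparisons, upper-quartile scaling changed the direction or call of none of the 77 tested log2 fold changes of members, and no member that was called reversed under any alternative. The number of members changed in E-NHSM against primed was 1, but 2 with DESeq2, 2 with at least 10 counts in every library, 5 with all 8 groups in 1 fit, 2 against the J libraries, 3 against the K libraries and 1 to 2 when a library was left out. Against J alone it was 7 in NHSM-v and 7 in 4i/L/b. With a minimum absolute log2 fold change of 1 it was 2 in 4i/L/b, 2 in TL2i, 3 in TL-CDK8i against TL2i and 2 in NHSM-v against E-NHSM, by construction of that rule. Leaving out a library gave 2 to 4 in 4i/L/b and 2 to 4 in TL2i, where fewer libraries were tested.

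Some differences changed sign, none of them called against all 6 primed libraries, and 2 of them, RB1 in TL2i (-0.47) and in TL-CDK8i (0.40), were called with all 8 groups in 1 fit. Against J alone, RB1 stood at 0.32 in E-NHSM, 0.11 in TL2i, 0.54 in t2iLGöY and 0.42 in LCDM (EPS), CDKN1C at 0.33 in NHSM-v and CDKN2D at 0.69 in TL-CDK8i. Against K alone, RB1 stood at -0.39 in NHSM-v, -0.35 in 4i/L/b and -0.0027 in TL-CDK8i, CDKN1B at -0.048 in NHSM-v, CDKN1C at -0.0041 in 4i/L/b, CDKN2D at -0.26 in TL2i, CDKN1A at -0.014 in t2iLGöY and RBL1 at -0.035 in TL-CDK8i. In t2iLGöY, RB1 stood at 0.0081 with DESeq2, 0.10 with library totals and 0.026 with at least 10 counts, and CDKN1A at -0.0042 with all groups in 1 fit. In NHSM-v, RB1 stood at -0.0052 with library totals. When a library was left out, RB1 ran from -0.13 to 0.18 in NHSM-v, -0.084 to 0.19 in 4i/L/b and -0.19 to 0.075 in t2iLGöY, CDKN1A from -0.19 to 0.38 in t2iLGöY and -0.13 to 0.40 in LCDM (EPS), CDKN2D from -0.66 to 0.078 in TL-CDK8i, and CDKN1B from -0.17 to 0.044 in TL-CDK8i against TL2i. The cause was not tested. Library totals moved the median of all genes to 0.19 in TL2i, 0.15 in t2iLGöY and 0.15 in LCDM (EPS).

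Libraries of the same number did not deviate together (correlations of deviations from -0.13 to 0.017), so the numbers do not pair the samples. With the replicate block, 3 calls were lost, RBL1 in TL2i (0.39, adjusted p = 0.072), CDKN1B in TL-CDK8i (0.80, adjusted p = 0.061) and RBL1 in TL-CDK8i against TL2i (-0.28, adjusted p = 0.053), while the log2 fold change of CDKN2C was 5.04 in LCDM (EPS) and 4.52 in t2iLGöY. Depth limits CDKN2C, CDKN2D and CDKN2B most, as primed libraries held 0 to 94 counts of them.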
